A study of Oryzias latipes with 6 samples.

Results

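Cluster 12 was a small group of brain nuclei set apart by olig1 transcripts. It was taken whole, as the authors' cluster 12, 1 of 14 clusters for which a comparison of fish lineages was deposited. The table itself lists genes and not nuclei, and its arithmetic gave 88 nuclei out of 7512 in all clusters, or 1.17%, which made cluster 12 the 13th largest of 14. Of these nuclei 73 came from the BaP lineage and 15 from the control lineage. The nuclei were from whole brains of 6 adult male medaka (Oryzias latipes), an F1 generation sampled at 6 months, with 3 fish per lineage. The BaP lineage descends from parents exposed to BaP, the combustion product benzo[a]pyrene, at 1 µg/L for 21 days. The control lineage descends from parents that received the solvent alone over the same time. All F1 fish grew up in clean water, and no value here shows whether BaP reached them through their parents. The labels name no strain and no genetic change, and the tables hold no value for a single fish, so nothing below has an error across the 3 fish of a lineage.

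Oligodendrocytes, the cells that wrap axons in myelin, arise from progenitors that persist in the adult brain of fish and mammals. In mice and zebrafish these progenitors carry the transcription factors Olig2, Olig1, Sox10 and Nkx2.2, and the receptor Pdgfra and the proteoglycans Cspg4 and Cspg5 are common markers of them in mammals. They are coupled to neurons by glutamate receptors, and on maturing they switch on myelin genes such as mbp, mag and mpz.

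Values are given as CPM, that is, unique molecular identifiers (UMIs, each marking 1 captured transcript) scaled to a common total per cluster. They are not scaled by gene length. The UMIs were estimated from the authors' deposited log2 mean level after the floor that undetected genes share was taken out. Cluster 12 held an estimated 93633 UMIs, 81494 from nuclei of the BaP lineage and 12265 from nuclei of the control lineage, so 1 UMI in the cluster was worth 10.7 CPM. The mean depth was 961 UMIs per nucleus, against 684 to 1905 over the 14 clusters, and it was 990 in nuclei of the BaP lineage and 819 in those of the control lineage. Detected in cluster 12 were 10140 of the 24365 genes listed, and 3046 of these (30.0%) rested on 1 UMI. A level was therefore read as high or low for the 1722 genes with at least 10 UMIs, and other genes are described by their UMIs. Mitochondrially encoded genes made up 12.6% of the UMIs of cluster 12 and 8.83% to 36.4% in the other clusters.

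The 6 genes that mark the cluster were each at their highest level of the 14 clusters in cluster 12. olig1, a basic helix-loop-helix factor of the oligodendrocyte lineage, stood at 504 CPM in cluster 12, against 5.90 CPM in cluster 8, 3.92 CPM in cluster 2 and no UMI in 7 of the clusters. aplnra and aplnrb, which encode receptors for the peptides apelin and apela, stood at 197 and 172 CPM in cluster 12 and at no more than 2.12 and 5.32 CPM in any other cluster. These levels rest on 47 UMIs for olig1, 18 for aplnra and 16 for aplnrb. traf4a, an adaptor protein of the TRAF family, had 202 UMIs and 2159 CPM in cluster 12, and 83.3 CPM in cluster 10, the next highest. sema5a, a membrane-bound semaphorin that guides axons, had 216 UMIs and 2305 CPM in cluster 12, and 193 CPM in cluster 6. mkxa, a homeobox factor known from tendon development in mice, had 60 UMIs and 635 CPM in cluster 12, and 40.3 CPM in cluster 9. All 6 were thus at more than 10 times the level of the next cluster. The clusters were made from the same genes, so these values describe cluster 12 and no test was run on them.

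Among all genes detected in any cluster, 479 (2.19%) had at least 10 UMIs in cluster 12 and at least 2 times their mean level in the other 13 clusters. Those 479 were 27.8% of the 1722 genes with that many UMIs. A further measure counted 446 genes (2.04%) as highest in cluster 12, and 124 (0.566%) had at least 2 times the level of the next highest cluster. The ratio to the next cluster was at least 5 in 32 genes and at least 10 in 13 genes, of which 11 have a symbol. The 20 symbols with the largest ratio ran from aplnra at 93.0 times, olig1 at 85.4 times and aplnrb at 32.3 times down to MAP4K4 at 6.57 times, and the next in order was tmem178bb at 6.41 times. A gene without a symbol, ENSORLG00000012892, was more abundant than any of these with 330 UMIs and 3528 CPM in cluster 12, and 437 CPM in cluster 4.

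**Figure D1:**
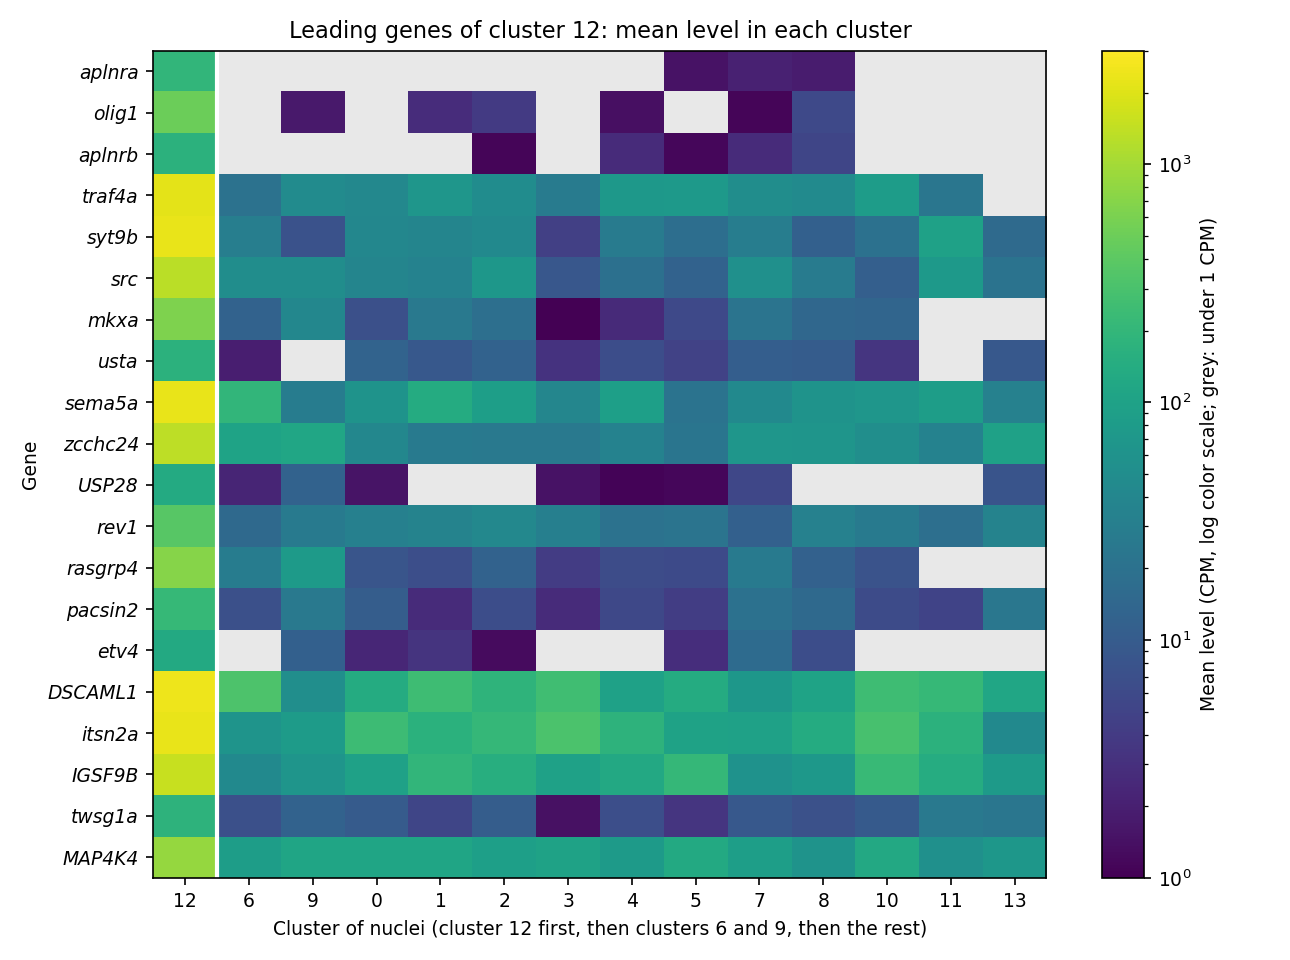
Mean level in CPM (log color scale) of the 20 genes with the largest ratio of cluster 12 to the next highest cluster, one row per gene and one column per cluster, with cluster 12 first, then clusters 6 and 9, then the rest. Grey marks levels under 1 CPM. The first column is the brightest in every row, and the rows of aplnra, olig1 and aplnrb are grey or at no more than 5.90 CPM elsewhere.

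Of the 20 leading genes src, a tyrosine kinase, stood at 1307 CPM in cluster 12 and 76.3 CPM in cluster 11. rasgrp4, an exchange factor that activates Ras, stood at 701 CPM in cluster 12 and 79.0 CPM in cluster 9. MAP4K4, a kinase upstream of JNK, stood at 852 CPM in cluster 12 and 129.7 CPM in cluster 5. etv4, an ETS factor induced by FGF signaling, and twsg1a, which binds BMP ligands, were sparser, with 12 and 17 UMIs in cluster 12. Their levels in cluster 12 were 129 and 178 CPM.

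syt9b, a synaptotagmin that senses calcium in membrane fusion, stood at 2301 CPM in cluster 12 and 97.8 CPM in cluster 11. itsn2a, a scaffold of endocytosis, stood at 2268 CPM in cluster 12 and 315 CPM in cluster 3, and pacsin2, which bends membranes, had 20 UMIs in cluster 12. The adhesion molecules DSCAML1 and IGSF9B stood at 2471 and 1526 CPM in cluster 12, against 326 CPM in cluster 6 and 218 CPM in cluster 10. usta, a sulfotransferase of chondroitin and dermatan sulfate, had 16 UMIs in cluster 12. The remaining 3 were zcchc24 at 1345 CPM, rev1, a DNA polymerase that copies past lesions, at 374 CPM, and USP28, a deubiquitinase, at 133 CPM.

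Ranked by level alone rather than by ratio, the most abundant transcript of a symbol that is not mitochondrially encoded was nlgn1, a postsynaptic adhesion molecule, at 3904 CPM in cluster 12 and 3486 CPM in cluster 3. Next came sox5 at 2542 CPM, DSCAML1, il1rapl2 at 2460 CPM, sema5a, syt9b, itsn2a, the glutamate receptor GRM8 at 2204 CPM, traf4a and gpatch8 at 2147 CPM. Of these 10, il1rapl2 and gpatch8 were higher elsewhere, in cluster 4 at 2691 CPM and in cluster 9 at 2363 CPM. High abundance and a large ratio thus coincided in sema5a, syt9b, itsn2a, traf4a and DSCAML1.

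The name oligodendrocyte progenitor-like needed 3 detected markers at 2 times their average elsewhere and leading genes that do not go against it, and cluster 12 met both. The marker count alone is a low bar. Clusters 6 and 9 each had 4 progenitor markers at that level. In cluster 12 the markers of cycling cells reached it too, with 7 of 9 detected, but on 16 UMIs in all. The progenitor list compiled for this comparison has 23 members in the tables, of which 21 were detected in cluster 12. Of these 21, 16 were at no less than 2 times their average over the remaining clusters. So were 2587 of the 10140 genes detected in cluster 12, which is the share to set beside 16 of 21. At 10 UMIs or more 12 of 14 list members were as high, against 27.8% of all genes with that many UMIs. The summed level of the list was 9282 CPM in cluster 12, and from 913 CPM in cluster 8 to 2446 CPM in cluster 3 among the others. Part of this overlap is built in, since olig1, traf4a and sema5a are both among the 6 given markers and in the list. Without them the list summed to 4315 CPM in cluster 12, against 799 to 2378 CPM in the others. Of its 18 detected members 13 were at 2 times or more, beside the same 2587 of 10140 genes. Of those 13, 9 had at least 10 UMIs. The remaining members were also chosen with earlier results of these data known, so these values are no independent check.

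Progenitor markers with 10 UMIs or more included transcription factors, matrix genes and protocadherins. sox8a, a SoxE factor related to sox10, stood at 519 CPM in cluster 12, against 183 CPM in cluster 6 and 168 CPM in cluster 9. sox10, which marks the whole oligodendrocyte lineage, had 24 UMIs and 252 CPM in cluster 12, below the 328 CPM of cluster 6. nkx2.2a had 14 UMIs and 153 CPM in cluster 12, and 42.8 CPM in cluster 9. xylt1, which starts chondroitin sulfate chains, stood at 590 CPM in cluster 12 and 361 CPM in cluster 1. The proteoglycan CSPG5 stood at 773 CPM in cluster 12 and at 992 CPM in cluster 3, so it was not at its highest in cluster 12. pcdh15b and pcdh15a, protocadherins, stood at 456 and 302 CPM in cluster 12, and at 191 and 154 CPM in cluster 1.

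Several markers most used for these cells in mammals were close to the detection limit. olig2 had 2 UMIs in cluster 12, or 22.6 CPM, and no more than 9.55 CPM elsewhere. olig1 and olig2 are next to each other in the RefSeq gene table of assembly ASM223467v1, which is not the authors' build. pdgfra, CSPG4 and GPR17 had 1 UMI each in cluster 12, and neu4 and nkx2.2b had none. At a depth of 961 UMIs per nucleus over 88 nuclei, a count of 0 allows a level of up to 32.0 CPM (3 UMIs), so low expression of these genes was not detectable.

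Myelin genes were not a feature of cluster 12. The 16 mature oligodendrocyte markers summed to 873 CPM in cluster 12, against 12320 CPM in cluster 6 and 452 to 1327 CPM in the other 12 clusters. mbpb, which encodes myelin basic protein, had 29 UMIs and 305 CPM in cluster 12, and 2915 CPM in cluster 6. mag had 75.4 CPM in cluster 12 and 3172 CPM in cluster 6, mpz had 19.8 CPM in cluster 12 and 1737 CPM in cluster 6, and cldnk, plp1b, CNP, fa2h, aspa and GJB1 were not detected in cluster 12. ugt8, an enzyme of myelin lipid synthesis, had 19 UMIs and 207 CPM in cluster 12, against 1137 CPM in cluster 6. The 10 markers of newly formed oligodendrocytes were all detected in cluster 12, but their sum of 379 CPM was the 12th highest of 14, and MYRF, the regulator of the myelin program, had 3 UMIs there against 673 CPM in cluster 6. The largest sum, 4137 CPM in cluster 10, came mostly from the list member tcf7l2, and the ranks without that gene were not computed.

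Radial glia, the stem cells of the adult fish brain, share part of this program. Their 23 markers summed to 2999 CPM in cluster 12 and 28679 CPM in cluster 9. slc1a2b, a glutamate transporter, made up 1400 CPM of the sum in cluster 12, against 15426 CPM in cluster 9. sox9a, at 163 CPM in cluster 12 and 235 CPM in cluster 9, and lfng, a modifier of Notch, at 172 CPM in cluster 12 and 420 CPM in cluster 9, were the 2 members that reached 2 times their average elsewhere. fabp7 had 11 UMIs and gfap 8 UMIs in cluster 12, and id1, id4 and the glutamate transporters slc1a3a and slc1a3b were not detected.

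**Figure D2:**
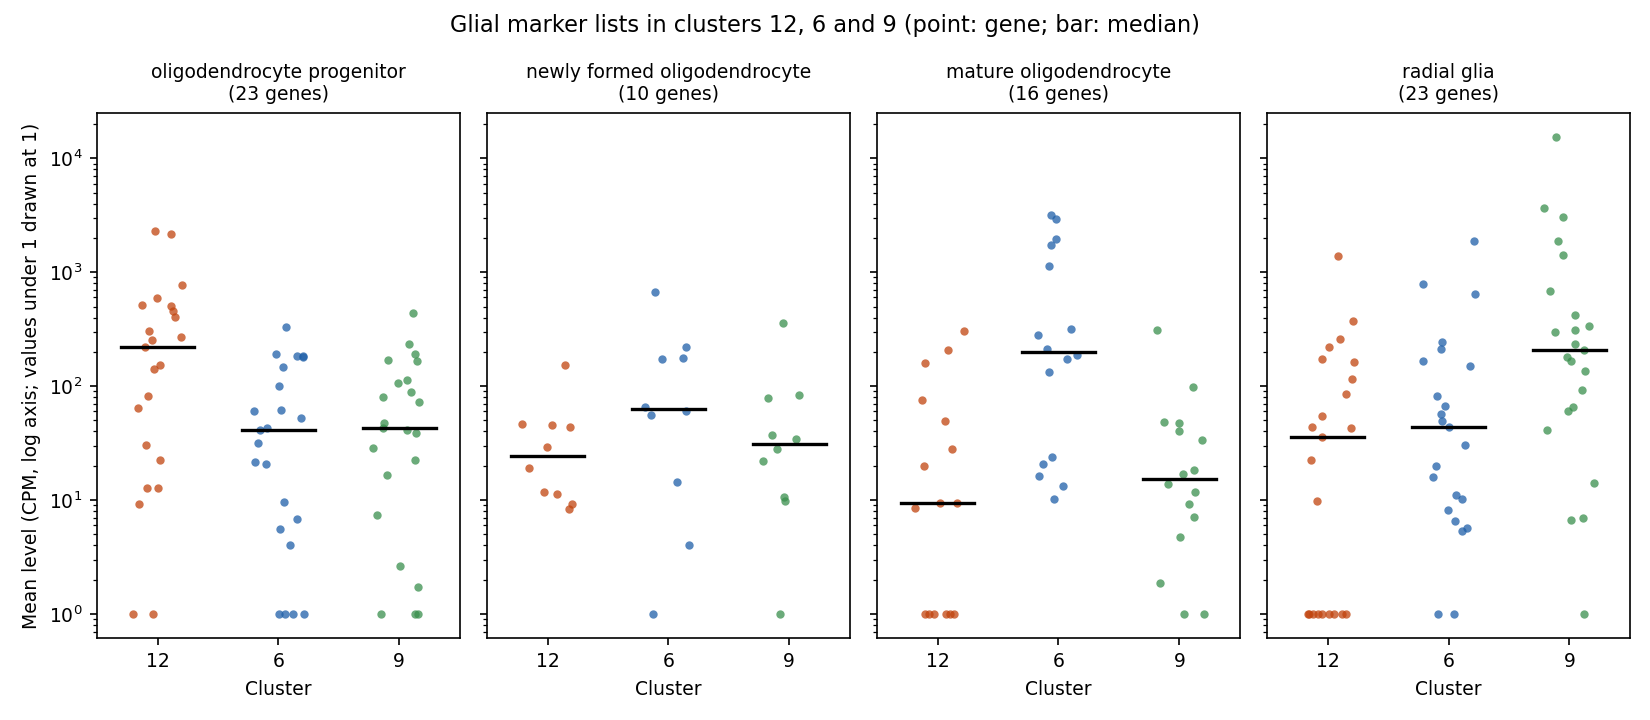
Level in CPM (log axis) of each marker of 4 glial lists in clusters 12, 6 and 9. Points are genes and bars are medians, and values under 1 CPM are drawn at 1. Progenitor markers are highest in cluster 12 (summed 9282 CPM), mature oligodendrocyte markers in cluster 6 (12320 CPM) and radial glia markers in cluster 9 (28679 CPM).

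Proliferation genes were too sparse to read. Of 28 cycling markers 9 were detected in cluster 12, none with more than 3 UMIs. Their sum of 173 CPM, from 16 UMIs, was the highest of the 14 clusters, with cluster 8 next at 134 CPM. mki67 had 1 UMI and pcna 2 UMIs, and top2a, cdk1, ccnb1 and ccna2 were not detected.

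sox5 and sox6, transcription factors of the Sox family, were high as well. sox5 stood at 2542 CPM in cluster 12 and 648 CPM in cluster 3, and sox6 at 1096 CPM in cluster 12 and 305 CPM in cluster 9. In mice Sox5 and Sox6 hold back the maturation of oligodendrocyte progenitors. zeb1b, a zinc finger and homeobox repressor, stood at 448 CPM in cluster 12 and 231 CPM in cluster 9. Of 41 factors in the list 32 were detected, and 16 were at 2 times or more. With at least 10 UMIs 10 of 17 were, beside 27.8% of all genes with that many UMIs. TCF4, zeb2b and nfixb were abundant in cluster 12, at 1439, 915 and 663 CPM, but each was higher in another cluster.

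gria4a, an AMPA receptor subunit, stood at 1862 CPM in cluster 12 and 646 CPM in cluster 1. GRM8, a metabotropic receptor, stood at 2204 CPM in cluster 12 and 1299 CPM in cluster 11. The kainate receptor subunits GRIK3, GRIK4 and GRIK5 stood at 822, 519 and 417 CPM in cluster 12, each the highest of the 14 clusters. gria2b, at 1905 CPM, was the highest of the 14 too but at 1.98 times its mean in the others. Of 35 receptor genes in the list 33 were detected and 8 were at 2 times or more. With at least 10 UMIs 6 of 18 were, near the 27.8% of all such genes. Their sum of 13613 CPM in cluster 12 was close to the 12328 CPM of cluster 11. Potassium, sodium and calcium channel genes summed to 6050 CPM in cluster 12, the 9th highest of 14, and to 18250 CPM in cluster 11. KCNJ10, a glial potassium channel, had 12 UMIs in cluster 12 and 125 CPM, against 330 CPM in cluster 9.

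Adhesion genes summed to 27995 CPM in cluster 12, the highest of the 14 clusters, and to 22754 CPM in cluster 1. Of 45 members 43 were detected, and 21 were at 2 times or more. With at least 10 UMIs 18 of 37 were, beside 27.8% of all such genes. CDH4, a cadherin, stood at 1961 CPM in cluster 12 and 1217 CPM in cluster 1. dscama, a relative of DSCAML1, stood at 1029 CPM in cluster 12 and 286 CPM in cluster 1. Matrix and proteoglycan genes were mixed, with 23 of 37 detected and 11 at 2 times or more. With at least 10 UMIs 5 of 9 were, beside 27.8% of all such genes. tncb, a tenascin, stood at 312 CPM in cluster 12 and 491 CPM in cluster 9, and CSGALNACT1, which builds chondroitin chains, at 149 CPM in cluster 12 and 168 CPM in cluster 10.

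The remaining pathways divided by member. In the apelin list the 2 receptors and gnai2, a G protein subunit that couples to such receptors, were high, with gnai2 at 482 CPM in cluster 12 and 259 CPM in cluster 5. The ligand gene apln was not detected in cluster 12. Among TRAF and TNF receptor genes traf4a was joined by LINGO1, which restrains oligodendrocyte maturation in mice, at 2095 CPM in cluster 12 and 1284 CPM in cluster 10. Among semaphorins and plexins sema4ba stood at 271 CPM in cluster 12 and 125 CPM in cluster 5, while plxna3, plxna4 and sema4c did not reach 2 times their average elsewhere.

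The Notch list summed to 1082 CPM in cluster 12 and to 1391 CPM in cluster 9, where radial glia markers were highest, and its receptors differed in direction. notch1b stood at 365 CPM in cluster 12 and 162 CPM in cluster 9, and notch1a at 143 CPM in cluster 12 and 47.9 CPM in cluster 9, whereas notch3 had no UMI in cluster 12 and stood at 229 CPM in cluster 9. The ligand dlb had 8 UMIs in cluster 12 and 84.4 CPM, against 11.6 CPM in cluster 9, and DLK1 stood at 131 CPM in cluster 12. Of growth factor receptors the neuregulin receptors erbb4a and ERBB4 stood at 1688 and 985 CPM in cluster 12, and at 1012 CPM in cluster 11 and 664 CPM in cluster 5. WNT7B, a Wnt ligand, had 15 UMIs and 156 CPM in cluster 12, and 75.7 CPM in cluster 6, while tcf7l2, a Wnt effector, stood at 153 CPM in cluster 12 and 3921 CPM in cluster 10. Hedgehog genes summed to 96.4 CPM in cluster 12, the lowest of the 14 clusters, but on 9 UMIs and with 121 CPM in cluster 4 next. BMP and TGF-beta genes summed to 814 CPM on 76 UMIs, also the lowest, with 879 CPM in cluster 7 next. No cholesterol or lipid synthesis gene had 10 UMIs.

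Markers of other cells mostly had few UMIs, with the exception of neuronal genes. Of 14 pan-neuronal markers 13 were detected and none was at 2 times its mean in the others. snap25a had 128 UMIs and 1371 CPM in cluster 12, and 6280 CPM in cluster 10, and RBFOX3 had 78 UMIs and 836 CPM in cluster 12, and 9127 CPM in cluster 5. The list summed to 5594 CPM in cluster 12, and to 2818 to 20986 CPM in the others. The defining transporters of glutamatergic neurons were near the limit, with 6 UMIs for slc17a6b, 5 for SLC17A6 and none for slc17a7a. gad2 and GAD1, enzymes of GABA synthesis, had 24 and 20 UMIs. The GABAergic list summed to 948 CPM in cluster 12, the 7th highest of 14, and to 3116 CPM in cluster 1. None of its 3 members with at least 10 UMIs was at 2 times its mean in the others. Of 12 microglial and macrophage markers MRC1 and AIF1 had 1 UMI each and csf1ra, spi1b, irf8, p2ry12 and MPEG1 had none. Of 20 endothelial markers 3 were detected with 1 UMI each, and cdh5, kdrl, pecam1a and vwf were not detected, although aplnra is known from blood vessels in other vertebrates. Of 6 erythrocyte markers the hemoglobin gene hbbe2 was detected with 40 UMIs, and its 431 CPM was the lowest of the 14 clusters. Neuronal precursor markers summed to 497 CPM in cluster 12, from 8 of 17 genes, and to 466 to 3489 CPM in the others. Of pericyte markers 5 of 14 were detected, led by tagln with 15 UMIs, and of fibroblast markers 4 of 16 with 1 UMI each. The pericyte list summed to 205 CPM in cluster 12, the 5th highest of 14. It had 2 members at 2 times or more, 1 of them with at least 10 UMIs. Epithelial markers were limited to 6 UMIs of krt8, and 1 of 7 lymphocyte, 1 of 8 ciliated and 3 of 9 skeletal muscle markers were detected. The skeletal muscle sum of 140 CPM, on 13 UMIs, was the 2nd highest of 14, with 143 CPM in cluster 5. The lymphocyte sum, on 1 UMI, was the 5th highest.

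**Figure D3:**
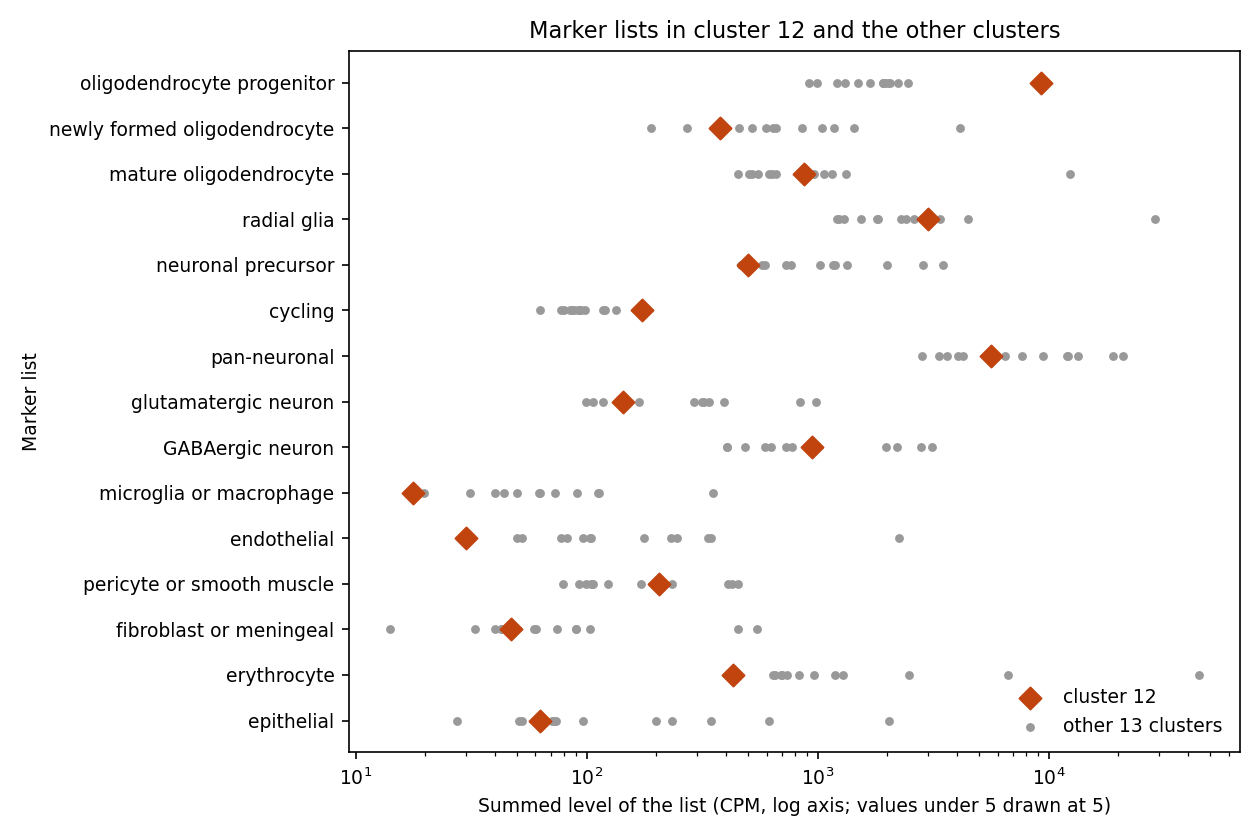
Summed level in CPM (log axis) of 15 marker lists, one row per list. Diamonds are cluster 12 and grey points are the other 13 clusters. Cluster 12 stands to the right of all others for oligodendrocyte progenitor markers (9282 CPM against at most 2446 CPM) and, on 16 UMIs, for cycling markers (173 CPM against at most 134 CPM). It is the lowest for microglial (2 UMIs), endothelial (3 UMIs) and erythrocyte markers (40 UMIs).

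Over the 1722 genes with at least 10 UMIs, levels in cluster 12 ranked most like those of clusters 2 and 1, with Spearman correlations of 0.55 each, followed by cluster 0 at 0.53. Cluster 6, where myelin genes were highest, had 0.40, and cluster 9, where radial glia markers were highest, had 0.46, and cluster 5 was lowest at 0.38. These are correlations across genes within tables from the same fish, and clusters 1 and 2 were also among the most deeply sequenced. Another count looked at the cluster next highest after cluster 12. Among the 446 genes highest in cluster 12 it was cluster 1 for 83 genes and cluster 9 for 74 genes. Among the 124 genes at 2 times or more the next cluster it was cluster 9 for 32 genes and cluster 1 for 22 genes.

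The 2 lineages differed in how many nuclei fell in cluster 12. It held 1.44% of the 5083 nuclei of the BaP lineage (95% exact Clopper-Pearson interval 1.13% to 1.80%), against 0.618% of the 2429 nuclei of the control lineage (0.346% to 1.02%). The intervals do not overlap, but they cover counting error alone and say nothing of the spread between fish. Shares differed in other clusters as well. Cluster 0 held 16.6% of the BaP-lineage nuclei and 37.5% of the control-lineage nuclei, and cluster 3 held 12.6% and 2.92%. The shares of a lineage add up to its whole, so the share of cluster 12 depends on those of the other clusters. The nuclei per fish are not in the tables, so no test over fish could be made, and a larger share and an uneven recovery of nuclei cannot be told apart here.

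Most leading genes of cluster 12 were at their highest there in nuclei of each lineage taken alone. All 20 leading genes were at their highest of the 14 clusters in nuclei of the BaP lineage, and 18 of 20 were so in nuclei of the control lineage. The exceptions were USP28, with 12 UMIs in nuclei of the BaP lineage and 0 in those of the control lineage, and twsg1a, with 16 and 1. The genes had been picked on both lineages pooled, in which 83.0% of the nuclei were of the BaP lineage. The clusters were also made from the same genes, so high levels in either lineage are no independent check. The summed level of progenitor markers in cluster 12 was 9639 CPM in nuclei of the BaP lineage and 6820 CPM in those of the control lineage. Mitochondrially encoded genes took 12.3% of UMIs in nuclei of the BaP lineage and 14.7% in those of the control lineage.

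The given markers were seen in both lineages, with few control counts. olig1 had 43 UMIs (532 CPM) in nuclei of the BaP lineage and 4 UMIs (310 CPM) in those of the control lineage. The ratio of UMIs per nucleus of equal depth was 1.83, with a 95% counting interval of 0.664 to 7.01. This ratio divides by nuclei times depth and not by the summed UMIs behind the CPM, so it runs higher than the ratio of the CPM. aplnra had 17 UMIs in nuclei of the BaP lineage and 1 in those of the control lineage, and aplnrb had 14 and 2. sema5a had 189 UMIs in nuclei of the BaP lineage and 27 in those of the control lineage, a ratio of 1.19 (0.792 to 1.85), and mkxa had 50 and 10, a ratio of 0.850 (0.426 to 1.88). All 3 intervals include 1, and that of olig1 is too wide to show a difference of several fold.

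Among the 20 leading genes the ratio was above 1 in 14, and its interval lay wholly above 1 in 3. By CPM 13 of 20 were higher in nuclei of the BaP lineage, the difference being zcchc24 with 1328 CPM in nuclei of the BaP lineage and 1445 CPM in those of the control lineage. Of all 1722 genes with at least 10 UMIs, 63.5% had a deposited log2 fold change above 0, and the median was 0.27. The count of 14 of 20 is best read beside that share. A gene with equal CPM in both lineages has a ratio above 1 here, so 1 is not a neutral value. The 20 were also picked on pooled nuclei, 83.0% of them of the BaP lineage, which can favor genes higher there. The share of all genes with an interval wholly above 1 is not given here. traf4a had 189 UMIs in nuclei of the BaP lineage and 13 in those of the control lineage, a ratio of 2.47 (1.41 to 4.73). syt9b had 200 and 15 UMIs, a ratio of 2.27 (1.34 to 4.13), and DSCAML1 had 214 and 18, a ratio of 2.02 (1.25 to 3.48). For the other 17 the interval included 1. itsn2a, for example, had 176 and 37 UMIs, a ratio of 0.809 (0.565 to 1.19).

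**Figure D4:**
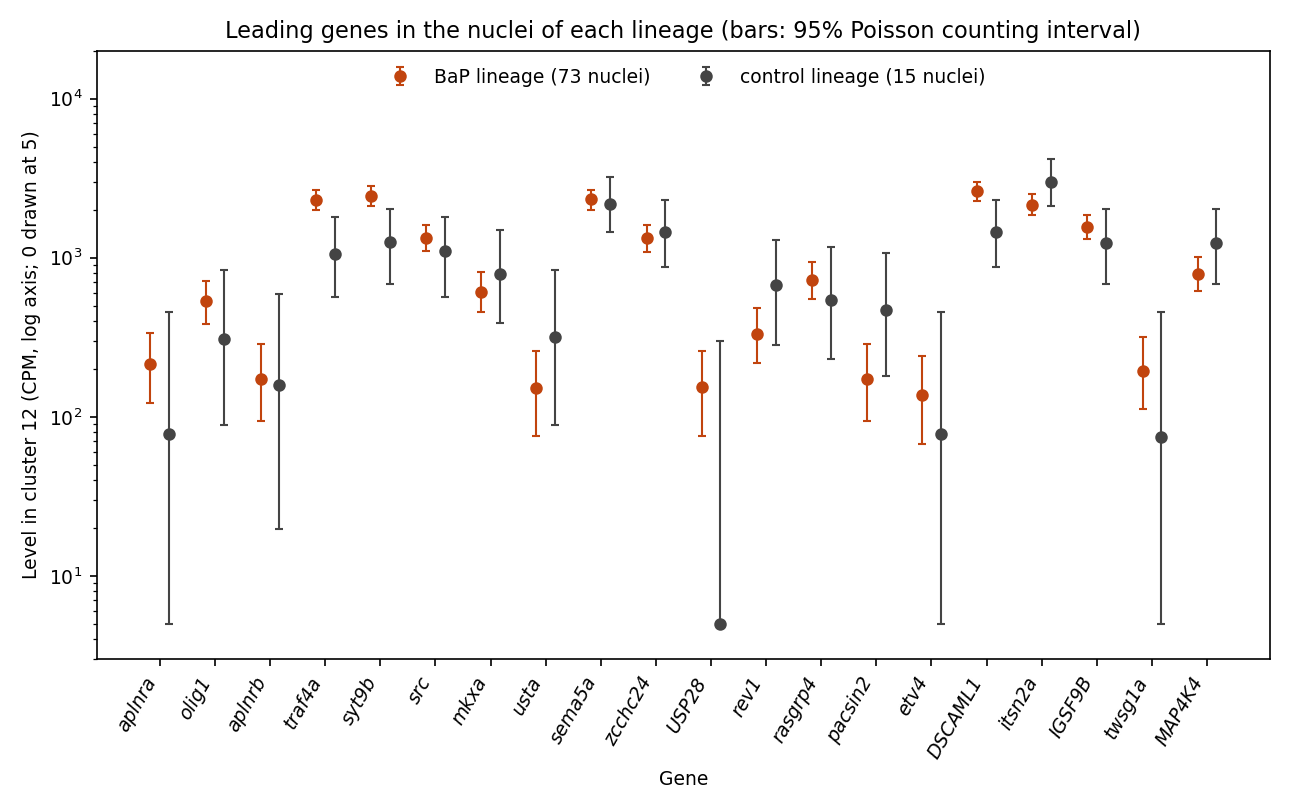
Level in cluster 12 in CPM (log axis) of the 20 leading genes, in nuclei of the BaP lineage (73 nuclei, left of each pair) and of the control lineage (15 nuclei, right). Bars are 95% Poisson intervals of the estimated UMIs and cover counting error alone, and values or lower bounds under 5 CPM are drawn at 5. The control intervals are the wider ones, and the control value of USP28, which had no UMI there, is drawn at 5. For traf4a, syt9b and DSCAML1 the interval of the ratio between lineages, which is not drawn, lay wholly above 1.

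Between the lineages, no gene of cluster 12 was called. An adjusted p under 0.05 was given to 0 of 24365 genes (0%) in the authors' deposited table, and every adjusted p was 1. Their unadjusted p was under 0.05 for 95 genes, 0.39% of all genes and 0.937% of the detected ones. Of these 54 were higher in the BaP lineage (0.533% of detected genes) and 41 lower (0.404%). No other tool could be run, since counts per nucleus or per fish are not used here. In the authors' deposited table p was exactly 1 for 59.9% of detected genes, so its p-values are not evenly spread between 0 and 1.

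The table could have shown large differences alone. A single call over 24365 genes needs an unadjusted p of 2.05e-06. By counting alone that takes at least 74 UMIs if every one lies in nuclei of the BaP lineage, and 126 genes, or 1.24% of the detected ones, have as many. In the other direction 8 UMIs suffice if every one lies in nuclei of the control lineage, and 2085 genes (20.6%) have as many. For olig1, with 47 UMIs, the smallest p that a shift to the BaP lineage could give was 0.000307, and for aplnra it was 0.0692, so neither could have been called higher. For traf4a the bound was 8.07e-17. Cluster 13, with 55 nuclei of the BaP lineage and 14 of the control lineage, had no call in the authors' deposited table either, while cluster 11, with 78 and 32, had 1.

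**Figure D5:**
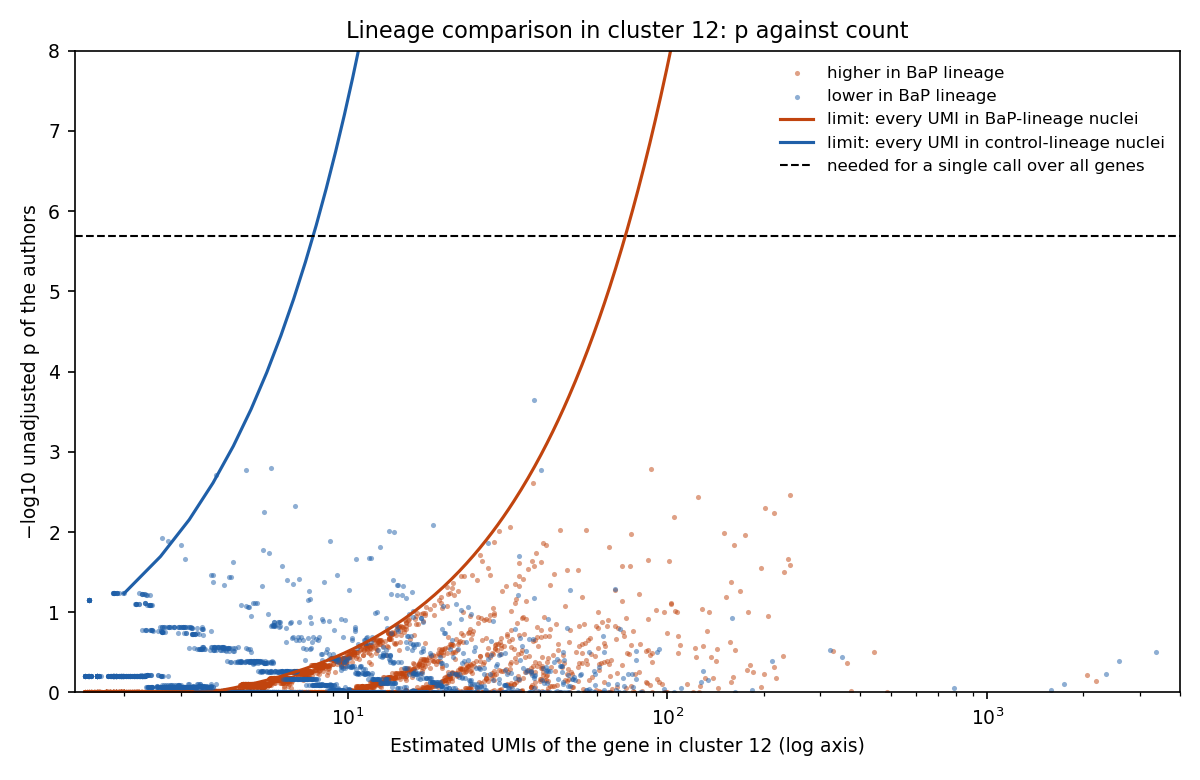
Unadjusted p of the authors (−log10, vertical axis) against estimated UMIs in cluster 12 (log axis), one point per detected gene with more than 1 UMI. Curves mark the smallest p that counting allows when every UMI lies in nuclei of the BaP lineage or of the control lineage, and the dashed line is the p of 2.05e-06 that a single call needs. The curves cross the line at 74 and 8 UMIs, and every point lies below the line.

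The same asymmetry bears on the genes with an unadjusted p under 0.05. To reach that value takes 20 UMIs if all are in nuclei of the BaP lineage, and 3 if all are in those of the control lineage. The 54 higher genes had a median of 41.2 UMIs and all of them had at least 10, which makes 3.14% of the genes with 10 UMIs. The 41 lower genes had a median of 6.76 UMIs and 15 of them had at least 10 (0.871%). Over the 1722 genes with at least 10 UMIs the median log2 fold change was 0.27 in the authors' deposited table, and 1093 genes (63.5%) were above 0. A log2 fold change of a single gene with that many UMIs is best read beside that median. The median is no neutral value, since UMIs of the BaP lineage alone can meet the minimum. Of the 1722 genes 173 had no UMI in control-lineage nuclei, and 0 had none in BaP-lineage nuclei. The log2 fold changes appear to carry a prior count that pulls those of sparse genes toward 0.

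The 10 higher symbols with the smallest unadjusted p included 2 leading genes of the cluster, traf4a and syt9b. In the authors' deposited table tafa5a, a secreted neural peptide, had a log2 fold change of 1.85 and an unadjusted p of 0.00164, with 86 UMIs in nuclei of the BaP lineage and 3 in those of the control lineage. iglon5, an adhesion molecule, had 38 and 0 UMIs, and pvrl2l, a nectin, had 119 and 5. CASK, a synaptic scaffold, had 54 and 2 UMIs, ERC2.1, a presynaptic scaffold, had 30 and 0, and the ribosomal gene rps3a had 29 and 0. The receptor subunits GRIK3 and gria4a had 73 and 4 UMIs and 161 and 13 UMIs. For traf4a and syt9b the authors' deposited table gives log2 fold changes of 1.21 and 1.07. None of these passed the adjusted threshold.

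Among the lower genes were hbbe2 and apoa2, which are known from blood and plasma. ENSORLG00000003046 had the smallest p of the authors' deposited table for cluster 12, 0.000224, with 12 UMIs in nuclei of the BaP lineage and 26 in those of the control lineage. Its level was 408 CPM in cluster 12 and 28503 CPM in cluster 8, the cluster where erythrocyte markers were highest. hbbe2 had 16 UMIs (196 CPM) in nuclei of the BaP lineage and 24 UMIs (1987 CPM) in those of the control lineage, and 43300 CPM in cluster 8. apoa2, an apolipoprotein of plasma, had 3 and 6 UMIs in cluster 12 and stood at 9901 CPM in cluster 13. The other 5 erythrocyte markers, alas2 and slc4a1a among them, had no UMI in cluster 12, and the part of RNA from other cells in these values was not tested.

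The other lower genes rested on few counts. nucks1a, a chromatin protein, had 11 UMIs in nuclei of the BaP lineage and 8 in those of the control lineage. dpysl4 and prkcba, a protein kinase C, had 7 and 7 UMIs and 7 and 6 UMIs. slc30a6, a zinc transporter, had 1 and 4 UMIs, snrpb, a splicing protein, had 2 and 5, TPM4, a tropomyosin, had 0 and 4, and sncaip and ergic2 had 0 and 3 each. None passed the adjusted threshold, and a log2 fold change of a gene with no UMI in one lineage depends on the prior count.

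No list had a called member, and the lists can be described by their medians. All detected genes had a median log2 fold change of 0.15 in the authors' deposited table, the value that a single UMI in the BaP lineage gives. The given markers had a median of 0.50 with 5 of 6 above 0, and the 21 detected progenitor markers had 0.44 with 16 above 0. At 10 UMIs or more the 479 genes high in cluster 12 had a median of 0.34 with 325 above 0, and the other 1243 genes had 0.24 with 768 above 0. Of the 479 genes 32 (6.68%) were higher and 4 lower at an unadjusted p under 0.05. The 479 were picked on pooled nuclei, 83.0% of them of the BaP lineage, which can favor genes higher there. Their values are thus no separate result about the lineages. The pan-neuronal list had a median of 0.60, glutamate and GABA-A receptors 0.37, adhesion genes 0.24, and mitochondrially encoded genes -0.01. At an unadjusted p under 0.05 glutamate and GABA-A receptors had 3 higher genes among 18 with 10 UMIs, and adhesion genes 3 higher and 2 lower, beside 3.14% higher and 0.871% lower of all genes with 10 UMIs.

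The response that BaP is known to induce directly was not measurable in cluster 12. BaP binds the aryl hydrocarbon receptor, which switches on cytochrome P450 genes. cyp1a, cyp1b1, cyp1d1 and nqo1 had no UMI in cluster 12, and the receptor gene ahr1b had 4 UMIs in nuclei of the BaP lineage and 0 in those of the control lineage. hsp90ab1, a chaperone of the receptor with many other clients, had 125 and 19 UMIs and a log2 fold change of 0.17 in the authors' deposited table. Of 16 DNA methylation genes 10 were detected and tet3 alone had 10 UMIs or more, with 13 in nuclei of the BaP lineage and 2 in those of the control lineage.

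Genes called in 6 or more of the other clusters were abundant enough to be compared in part. All clusters come from the same 6 fish, so the values of other clusters are not independent of these. COX1, COX2, COX3, ATP6, CYTB, ND2 and ND4 were lower in 9 or 10 other clusters. In cluster 12 the authors' deposited table gave them log2 fold changes of 0.29, -0.21, -0.34, -0.09, -0.01, -0.50 and 0.04. ND1, ND3 and ND5, lower in 7 or 8 other clusters, had 0.54, -0.20 and 0.70, and RAPGEF5, lower in 6, had 1 UMI in cluster 12. COX3, the most abundant, had 2128 UMIs in nuclei of the BaP lineage and 458 in those of the control lineage, and its unadjusted p in the authors' deposited table was 0.403. PNPLA6, a phospholipase called lower in 6 other clusters, had 122 and 37 UMIs and a log2 fold change of -0.79 in the authors' deposited table. Its direction was not uniform, with log2 fold changes of 0.47, 0.17, 0.94 and 1.41 in clusters 4, 5, 11 and 13. In clusters 6, 9 and 10 it was below 0, and none of these 7 values was called. fkbp5, a co-chaperone of the glucocorticoid receptor higher in 6 other clusters, had 32 and 6 UMIs and a log2 fold change of -0.03 in the authors' deposited table. Whether cluster 12 differs from the other clusters in these genes was not tested.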

How the data were processed

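Nuclei of 6 whole brains were profiled with 10x 3' libraries, per the labels' protocols, and the submitters' processing notes name Cell Ranger. The libraries were aggregated and lineages compared within clusters, per the series design text. How nuclei were clustered and filtered, how doublets were treated and which test was run was not given in the sources used here. Per the file headers, the authors deposited for each cluster a log2 fold change, a log2 mean CPM, a p-value and an adjusted p-value. The fold change was read as BaP over control lineage from the table names, which the headers do not state.

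UMIs, nuclei and depth were worked out from these columns. Undetected genes share a floor, taken as a prior count of 2 per nucleus, and the log2 fold change as carrying a prior count of 0.125. The p-value of a gene with 1 UMI then gives the share of nuclei per lineage. No source states these settings. For 396 genes of cluster 12 whose p marks 1 control UMI, the median estimate was 1.02. Nuclei and depth were set from genes of this kind, so that value is no independent check. For 233 genes whose p marks 1 control and 1 BaP UMI, the median estimates were 0.97 and 0.89. For 207 genes whose p marks 1 control and 2 BaP UMIs, they were 0.96 and 1.88. Summed UMIs came to 111% of nuclei times depth in cluster 12 (106% to 117% over clusters), a gap whose cause was not tested. In cluster 12 the gap lay in nuclei of the BaP lineage, with 81494 UMIs from 73 nuclei at a depth of 990. The control lineage, with 12265 UMIs from 15 nuclei at a depth of 819, had almost none. A ratio of UMIs per nucleus of equal depth therefore lies above 1 for a gene with equal CPM in both lineages. The arithmetic was also run on simulated data built with the same assumed settings. That run could not test whether the authors used those settings.

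A gene was called at an adjusted p under 0.05, as deposited, and no further test was run on single genes. Intervals are exact Poisson, Clopper-Pearson or conditional binomial at 95% and cover counting error alone. Named genes are the 6 given markers, the 20 symbols with the largest ratio to the next cluster, the 10 most abundant, up to 4 of the most abundant members of each of 36 lists, the 10 higher and 10 lower symbols with the smallest p, and those called alike in 6 or more other clusters. Genes without a symbol are limited to 2 per direction. A gene the rule takes is not reported here. Further list members were named after their values were seen, as defining markers of a list. Members and lists were chosen with earlier results of these data known. Symbols matched in any letter case and with or without a final a or b. Alternatives varied the reference, the UMI minimum, the fold, the floor, the lineage and the adjustment. Python 3.11, numpy 2.4.6, pandas 2.3.3, scipy 1.17.1 and matplotlib 3.10.9 were used.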

Additional observations from a re-analysis of the deposited data

How the results depend on the processing

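The count of 479 genes high in cluster 12 became 124 against the highest other cluster, 756 with a minimum of 5 UMIs, 290 with 20, 176 at a fold of 4 and 17 with the floor left in, which compresses every ratio. It stayed within 1.5 times under the median of the others (577), the BaP lineage alone (442) and the control lineage alone (578). The 16 high progenitor markers became 8 against the highest other cluster, 10 with 20 UMIs, 8 at a fold of 4 and 2 with the floor left in, and they were 13 to 19 under the other alternatives. Cluster 2 kept the highest correlation, at 0.49 over genes with 20 UMIs and 0.53 without mitochondrially encoded and ribosomal protein genes. The lineage comparison stayed at 0 calls at an adjusted p under 0.1, over detected genes and over genes with 10 UMIs (smallest adjusted p 0.386). It gave 95 genes at an unadjusted p under 0.05 and 89 if the log2 fold change also had to be 1 or more in size. Of 16 list medians 3 changed sign when prior counts and members absent from a lineage were dropped, namely mature oligodendrocyte markers (0.15 as deposited, -0.04 without), semaphorins (0.21, -1.05) and Wnt genes (0.15, -1.02). No paired analysis was possible because the tables hold no values per fish, and leaving out a fish was not run for the same reason. The 15 control nuclei, with 12265 UMIs, limit every lineage value.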
